A study of Oryzias latipes with 6 samples.

Results

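The CYP1 family of Japanese medaka (Oryzias latipes) was followed in the axial tissue of larvae that had met TCDD, a dioxin, as embryos. Its members were taken by name: a gene belonged if its symbol, without regard to case or copy suffix, began with cyp1a, cyp1b, cyp1c or cyp1d. The rule found 4 genes among the 20459 of the table, cyp1a, cyp1c2, CYP1B and cyp1d1, each standing once. Embryos of one strain, Orange-red Hd-dR, were exposed for 1 h from about 4 hours post fertilization to 0.3 nM TCDD or to 0.1% DMSO, the solvent control, and were sampled at 20 days post fertilization. Vertebrae with the muscle, fat and dermis around them were freed of head and viscera, 15 to 25 fish were pooled for each RNA sample, and polyA RNA was sequenced on the Ion Torrent PGM. There were 3 libraries per group. Nothing says that the pools were drawn from different clutches, and the spread behind the p-values may therefore be technical.

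For each gene the authors' deposited table holds a single level for DMSO and another for TCDD, taken here to be FPKM from its layout. FPKM counts fragments per length of gene and per size of library. Levels of different genes can be set side by side only if that reading of the unit holds. With no value per library, no SD or interval can be given and the depth per library is unknown. A gene was called changed when the q-value of the authors' own test was at most 0.05. That test covered 3286 of the 20459 genes. In whole tissue, fewer cells of a type and less RNA per cell cannot be told apart.

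CYP1 enzymes are haem-containing monooxygenases that put an oxygen atom onto flat aromatic compounds. Their genes are textbook targets of the aryl hydrocarbon receptor (AHR): a ligand such as TCDD binds the receptor in the cytoplasm, the receptor sheds its HSP90 chaperones, enters the nucleus, pairs with ARNT and binds response elements upstream of the CYP1 genes. Fish carry 4 CYP1 subfamilies, A to D, and cyp1a is the one most used as a marker of exposure, with inducible expression known in liver, gill and the lining of blood vessels. TCDD is broken down only slowly, which sets it apart from many other AHR ligands.

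In the TCDD group 3 of the 4 CYP1 genes were called higher, cyp1a with the largest rise in FPKM, and the remaining gene, cyp1d1, was not tested. All 4 had a higher value in TCDD than in DMSO. Of all 3286 tested genes, 10.7% were called higher in TCDD and 7.46% lower, or 18.2% in either direction. The 3 calls cannot be read as 3 of 3 tested, because the tested genes tended to be the more abundant. The mean of both groups had a median of 3.88 FPKM among untested genes. Level alone did not decide testing, since untested genes reached up to 836 FPKM in DMSO and 763 FPKM in TCDD. Among tested genes the lowest mean of both groups was 13.7 FPKM, and cyp1c2, CYP1B and cyp1d1 all lay below that value in DMSO.

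**Figure D1:**
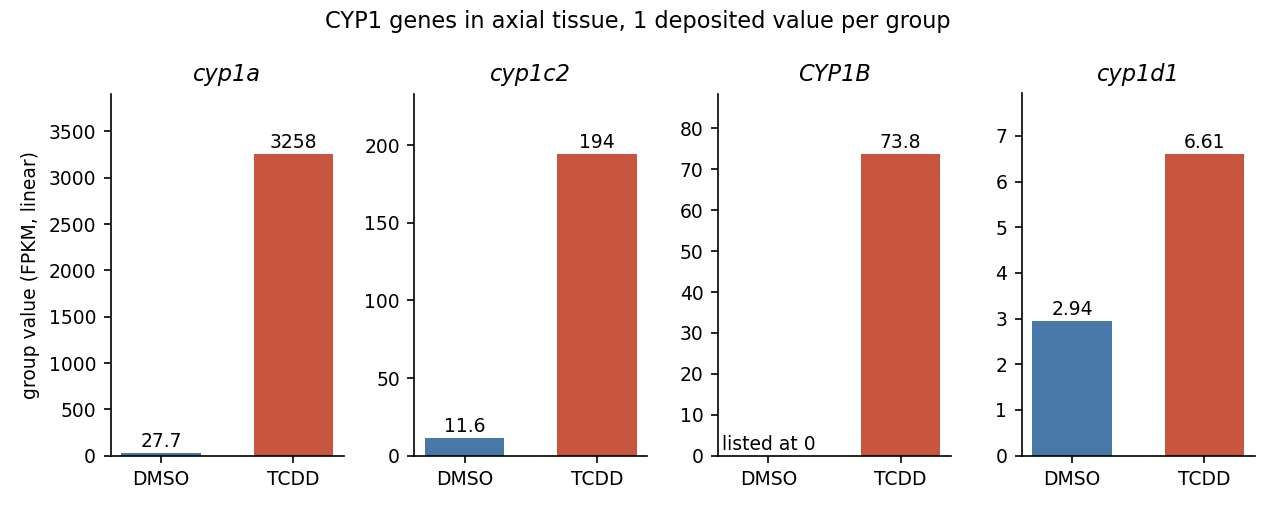
Group values of the 4 CYP1 genes in FPKM on linear axes that start at 0, one panel per gene with its own scale; each bar is the single deposited value of a group of 3 libraries. The TCDD bar is the taller in every panel, from 3258 FPKM for cyp1a down to 6.61 FPKM for cyp1d1.

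The gene cyp1a (ENSORLG00000014421) encodes the monooxygenase used as the classical readout of AHR activity. Its locus is on chromosome 3 from 30530519 to 30533663, as written in the table, whose genome build is not given in these sources. The group values were 27.7 FPKM in DMSO and 3258 FPKM in TCDD. In DMSO it was already the most abundant of the 4, although it ranked only 3112 among all genes of the table, and in TCDD it ranked 44. The authors' deposited table calls it higher, with a fold change of 118, or 6.88 on the log2 scale, and q = 0.00105. Among the 587 called genes above 0 in both groups, its test statistic of 11.6 in the authors' deposited table was the most positive. Its log2 fold change ranked 3 among them, and 4 among the 3262 tested genes above 0 in both groups. Its rise of 3230 FPKM ranked 3 among called genes and 7 among all tested genes. The transcript made up 0.294% of the summed TCDD values.

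The gene cyp1c2 (ENSORLG00000016937) belongs to the CYP1C subfamily, which fish have and mammals lack. It lies on chromosome 22 from 14210747 to 14215636. Its values were 11.6 FPKM in DMSO and 194 FPKM in TCDD, so it was second in the family in both groups. In the authors' deposited table the fold change was 16.8, or 4.07 on the log2 scale, with a test statistic of 6.13 and q = 0.00105. Counted from the most positive value, that statistic ranked 4 among the called genes above 0 in both groups, and the log2 fold change ranked 6. Among the 3262 tested genes above 0 in both groups, called or not, the log2 fold change ranked 17. CYP1C genes can stand beside a close copy in fish genomes, and how the authors' counting treated reads that match several loci is not given, so the cyp1c2 level is uncertain in that respect.

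CYP1B (ENSORLG00000000853) is the member of the subfamily that in mammals includes CYP1B1, an enzyme acting on oestrogens and retinoids. Its locus runs on chromosome 15 from 2735153 to 2737995. The DMSO value was listed at 0 and the TCDD value was 73.8 FPKM, which put it below cyp1c2 and above cyp1d1 in the TCDD group. The authors' deposited table calls it higher with q = 0.00105. It has no fold change, since no ratio to a value of 0 can be formed, and no readable test statistic. The read count behind the 0 is not given. A value of 0 need not mean absence here: lsm7, which encodes a splicing protein that every cell uses, likewise stood at 0 in DMSO, against 128 FPKM in TCDD.

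The gene cyp1d1 (ENSORLG00000012351), on chromosome 9 from 18241869 to 18248016, belongs to a subfamily that in zebrafish is described as little induced by AHR ligands. Its values were 2.94 FPKM in DMSO and 6.61 FPKM in TCDD, a ratio of 2.25 (1.17 on the log2 scale). The authors' deposited table marks it as not tested. Of the 5463 other untested genes whose mean lay within 2-fold of its own and which were above 0 in both groups, 14.4% had a log2 fold change at least as high. Its difference is therefore of a size that many genes at this level show, and the highest CYP1 value in DMSO, that of cyp1a, was 9.42 times its own.

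The 3 called members share the smallest p that the authors' test could give, 5e-05, with 157 tested genes in all. Their equal q-values in the authors' deposited table therefore put them in no order. No test of the difference between 2 genes' responses could be run without values per library, so the orders of fold changes given here are descriptions. By level, cyp1a stood at 2.39 times cyp1c2 in DMSO and at 16.8 times cyp1c2 in TCDD. In TCDD cyp1c2 in turn stood at 2.64 times CYP1B and CYP1B at 11.2 times cyp1d1. The summed CYP1 level was 42.2 FPKM in DMSO and 3533 FPKM in TCDD, an 83.7-fold difference. Of that sum cyp1a made up 65.6% in DMSO and 92.2% in TCDD, cyp1c2 27.5% and 5.51%, and cyp1d1 6.96% and 0.187%, while CYP1B made up 2.09% in TCDD.

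**Figure D2:**
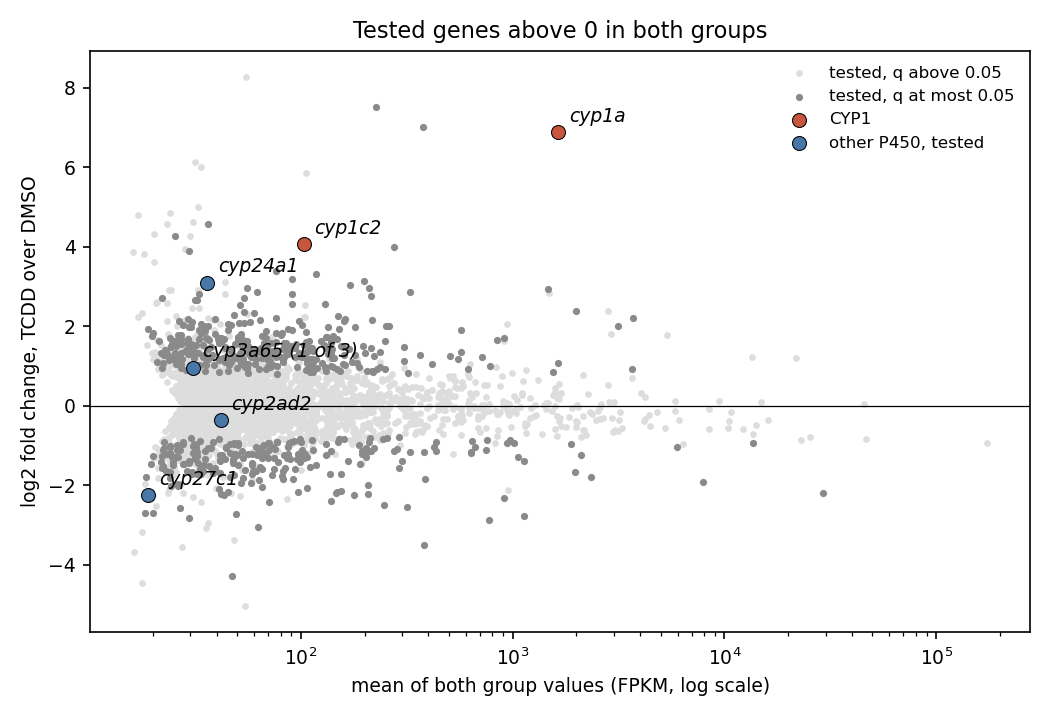
Log2 fold change of TCDD over DMSO against the mean of both group values in FPKM (log axis), for the 3262 tested genes above 0 in both groups; light grey points have q above 0.05 and dark grey points q of at most 0.05 in the authors' test. The CYP1 genes cyp1a (6.88) and cyp1c2 (4.07) lie above all 4 tested genes of the other P450 families, the highest of which is cyp24a1 (3.09); CYP1B has no fold change and is not drawn.

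Most other genes with a P450 symbol were not tested. The 38 found in the table belong to families that act on steroids, vitamin D, retinoids, bile acids, fatty acids and foreign compounds. Only 4 were tested, and of these 1 was called higher and 1 lower in the authors' deposited table, where 10.7% and 7.46% of all tested genes were. Their median log2 fold change was 0.29, against 0.05 over all tested genes. The gene cyp24a1, whose product inactivates vitamin D by 24-hydroxylation, rose from 7.58 to 64.7 FPKM (log2 3.09, the authors' deposited table gives q = 0.0018). The gene cyp27c1, whose zebrafish product converts vitamin A1 to vitamin A2, fell from 31.4 to 6.60 FPKM (log2 -2.25, the authors' deposited table gives q = 0.018). Both called genes lay below the lowest mean of a tested gene, 13.7 FPKM, in the group where they were low. Neither their calls nor the median of the 4 can therefore be read against the values over all tested genes. The other tested genes did not pass: the authors' deposited table gives q = 0.0797 for the CYP3A gene cyp3a65 (1 of 3), at 21.0 and 40.6 FPKM, and q = 0.518 for cyp2ad2, at 47.0 and 36.4 FPKM and with an unnamed gene overlapping its locus.

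Among the 34 untested P450 genes, 15 had a higher value in TCDD, 13 a lower one and 6 were listed at 0 in both groups. None exceeded 22.0 FPKM in DMSO or 25.9 FPKM in TCDD. The 38 genes summed to 247 FPKM in DMSO and 304 FPKM in TCDD. CYP1 thus made up 14.6% of the summed FPKM of the P450 genes found by symbol in the control tissue and 92.1% after TCDD. P450 genes without a name or under other symbols are not in that sum.

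Genes of the AHR pathway outside CYP1 were read from a list of receptor, partners, chaperones, repressor and targets. The list has 21 rows in the table, of which 8 were tested. The authors' deposited table calls 4 of these higher and 2 lower, where 10.7% of all tested genes were called higher and 7.46% lower. Their median log2 fold change was 1.15, against 0.05 over all tested genes. Among the 8, the repressor gene ahrrb lay below the lowest mean of a tested gene, 13.7 FPKM, in DMSO. Neither the counts nor the median can therefore be read against all tested genes. The receptor gene ahr2 (2 of 2) rose from 31.9 to 105 FPKM (log2 1.71, the authors' deposited table gives q = 0.00105), below the log2 values of cyp1a and cyp1c2. The other receptor rows were untested: ahr2 (1 of 2) had 10.3 and 18.9 FPKM, ahr 2.75 and 5.55 FPKM, and ahr1b (2 of 2) 0.583 and 1.01 FPKM, each with the higher value in TCDD.

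The partner genes were untested as well. The values of arnt were 24.7 and 23.1 FPKM, at a locus that overlaps 5 other genes, and those of arnt2 12.1 and 10.3 FPKM. Their log2 fold changes were -0.10 and -0.23. The third row of the partner list, arntl1a, a clock gene related to arnt, had 8.13 and 15.6 FPKM (log2 0.94). Of the cytoplasmic chaperones, hsp90ab1 had 2802 and 4510 FPKM and did not pass (the authors' deposited table gives q = 0.131). By contrast hsp90aa1.1, which in zebrafish muscle helps myosin to fold, fell from 277 to 101 FPKM (the authors' deposited table gives q = 0.00105). Another 3 chaperone rows were untested, 2 with a higher and 1 with a lower value in TCDD. They were hsp90aa1.2 (12.1 and 26.0 FPKM), aip (16.3 and 19.2 FPKM) and ptges3b (21.5 and 9.44 FPKM).

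The AHR repressor gene ahrrb, itself switched on by the receptor, rose from 2.95 to 69.9 FPKM (log2 4.57, the authors' deposited table gives q = 0.0018). That log2 fold change lies above that of cyp1c2 and below that of cyp1a. In DMSO ahrrb lay below the lowest mean of a tested gene, 13.7 FPKM, so its call cannot be read against the share over all tested genes. Of the targets outside CYP1, ugt1a7, which encodes a glucuronosyltransferase, rose from 58.2 to 266 FPKM (log2 2.19, q = 0.00105) and the ADP-ribosyltransferase gene tiparp, a brake on the receptor, from 27.4 to 84.1 FPKM (log2 1.62, q = 0.0018), by the authors' deposited table. The chondrocyte factor sox9b, which falls in TCDD-exposed zebrafish, fell from 46.6 to 14.6 FPKM (the authors' deposited table gives q = 0.0053). The gene nfe2l2a had 91.5 and 142 FPKM (the authors' deposited table gives q = 0.112). The 4 untested target rows had no higher value in TCDD: aldh3a1 had 12.5 and 5.23 FPKM, wfikkn1 1.80 and 0.656 FPKM, NQO1 (2 of 2) 1.08 FPKM in DMSO with TCDD listed at 0, and nqo1 was listed at 0 in both groups.

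**Figure D3:**
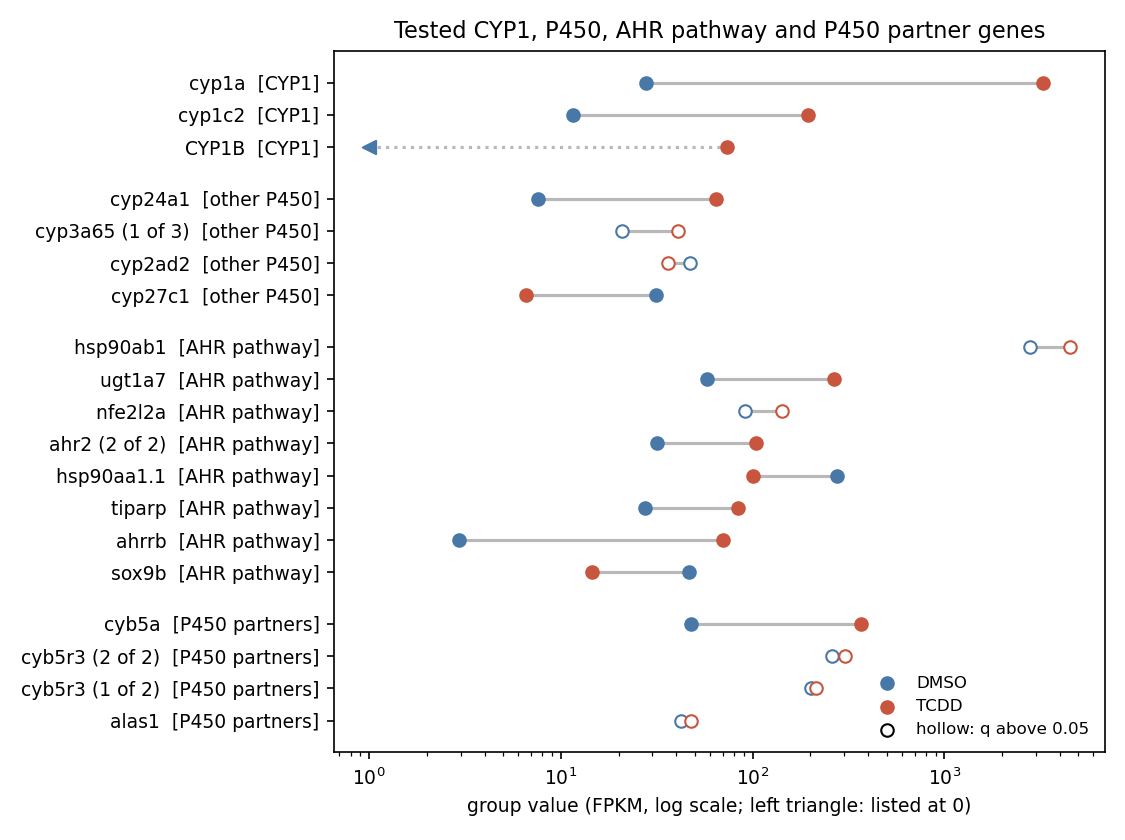
DMSO (blue) and TCDD (red) group values in FPKM on a log axis for every tested CYP1, other P450, AHR pathway and P450 partner gene; hollow points have q above 0.05, and the triangle marks CYP1B listed at 0 in DMSO. The longest line joins the cyp1a values, 27.7 and 3258 FPKM.

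A P450 enzyme needs electrons from a partner protein and a haem group to work. The list of electron donors and of haem synthesis and breakdown has 24 rows, none of them for por, the gene of P450 oxidoreductase. Of the 24 rows 4 were tested. The authors' deposited table calls 1 higher and 0 lower, where 10.7% of all tested genes were called higher and 7.46% lower. With 4 tested rows, 1 call is too few to be read against those shares. The median log2 fold change of the 4 was 0.20, against 0.05 over all tested genes. The called gene was cyb5a, encoding cytochrome b5, a microsomal electron donor. It rose from 47.8 to 369 FPKM (7.72-fold, log2 2.95, the authors' deposited table gives q = 0.00105). Neither copy of cyb5r3, the reductase that feeds cytochrome b5, passed: cyb5r3 (2 of 2) had 259 and 303 FPKM and cyb5r3 (1 of 2) 201 and 215 FPKM, for which the authors' deposited table gives q = 0.631 and 0.85.

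The gene alas1, which sets the rate of haem synthesis, had 42.4 and 48.0 FPKM (the authors' deposited table gives q = 0.73). Of the 8 other haem synthesis rows, none of which was tested, 2 had a higher and 6 a lower value in TCDD. Among 6 untested rows of haem breakdown, 4 had a higher and 2 a lower value in TCDD. Both rows of the inducible haem oxygenase were higher there, HMOX1 (1 of 2) at 6.31 and 28.9 FPKM and hmox1a at 1.59 and 17.1 FPKM. The constitutive hmox2a had 27.5 and 19.4 FPKM and hmox2b 20.6 and 25.4 FPKM. The remaining rows were blvra, at 18.42 and 18.44 FPKM, and blvrb, at 5.99 and 3.57 FPKM.

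No other row overlapped a CYP1 locus. Of the 8 rows directly before and after the CYP1 loci 5 were untested, and 0 of the 3 tested were called, where 18.2% of all tested genes were called. The nearest was EDC3 (2 of 2), an mRNA decapping gene whose locus ends 345 bases before that of cyp1a. It was untested, and its level was 7.87 FPKM in DMSO against 3.00 FPKM in TCDD, the opposite order to its neighbour. The locus of gchfr, which encodes a regulator of tetrahydrobiopterin synthesis, starts 31583 bases after that of cyp1c2. The values of gchfr were 36.8 and 173 FPKM (log2 2.23), but its q of 0.207 in the authors' deposited table did not pass. The locus of cdc42ep3, at 89.7 and 73.3 FPKM, ends 171461 bases before that of CYP1B. That of ANXA1, at 224 FPKM in both groups, starts 17531 bases after cyp1d1. For cdc42ep3 and ANXA1 the authors' deposited table gives q = 0.579 and 0.995. The rows on the other sides were nearer and untested. They were nanp, 46088 bases after CYP1B (17.0 and 7.19 FPKM), and si:dkey-229d2.2, 3158 bases before cyp1d1 (1.62 and 1.34 FPKM).

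**Figure D4:**
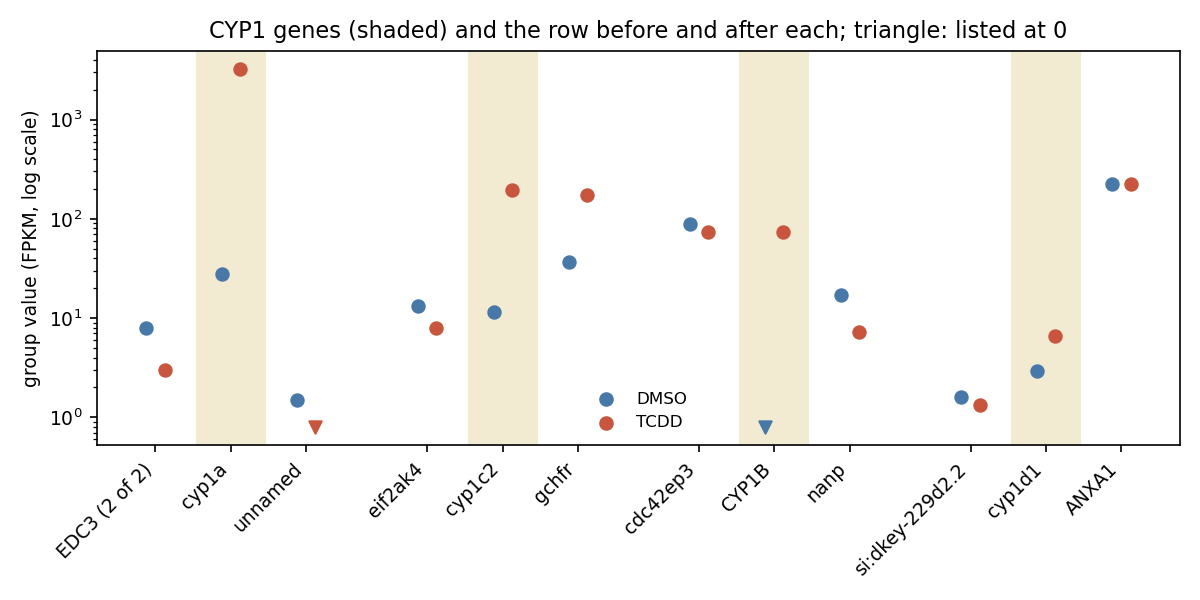
DMSO (blue) and TCDD (red) group values in FPKM on a log axis for each CYP1 gene (shaded) and the rows directly before and after it on its chromosome; triangles mark values listed at 0. The TCDD value of cyp1a is 3258 FPKM and that of EDC3 (2 of 2) beside it 3.00 FPKM.

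With 1 value per group, the likeness of another gene to a CYP1 gene can be measured only as the distance between log2 fold changes over the 2 group values. The 3 named tested genes nearest to cyp1a were fbxo32, a muscle ubiquitin ligase gene (distance 0.12), BPIFC (2 of 2) (0.64) and gpc5 (0.76). In the authors' deposited table fbxo32 (5.86 and 748 FPKM) and BPIFC (2.46 and 451 FPKM) had q = 0.0209, whereas gpc5 (0.892 and 62.0 FPKM) had q = 0.288. Nearest to cyp1c2 were calcoco1b (distance 0.06, 32.1 and 515 FPKM, q = 0.00105), steap4, a metalloreductase gene (0.14, 3.49 and 53.2 FPKM, q = 0.144), and gel-b (0.17, 3.71 and 55.2 FPKM, q = 0.00249), all by the authors' deposited table. In DMSO all of these near genes except calcoco1b lay below the lowest mean of a tested gene, 13.7 FPKM. Their fold changes therefore rest on low DMSO values. Reads of gel-b are uncertain, since adora1 and dclre1b lie across its locus.

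CYP1B was 1 of 13 tested genes listed at 0 in DMSO, of which 6 were called, where 10.7% of all tested genes were called higher. A gene listed at 0 in DMSO can only be called higher, so the 6 calls cannot be read against that share. Besides CYP1B the authors' deposited table calls lsm7, zgc:193616, a pair of genes named si:ch211-194m7.8 and si:ch211-194m7.5, and an unnamed gene; the named ones reached 49.8 to 128 FPKM in TCDD. The 5 other named genes of that kind, SNORA3, SNORA13, SNORD15, SCARNA6 and ACA64, are small RNA genes at loci shared with other genes, with 59.2 to 90.8 FPKM in TCDD, and did not pass (q from 0.304 to 0.428 in the authors' deposited table).

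Markers of tissues rich in CYP1 were read in the same values. The liver list has 11 rows in the table, 8 of them higher in TCDD, 0 lower and 3 listed at 0 in both groups. The last were the liver fatty acid-binding protein gene fabp10a, fgb and serpina1. Of the rows higher in TCDD, those of fga, fgg, hp and C3 were untested and did not exceed 3.70 FPKM in either group. The untested tfa had 3.36 and 21.0 FPKM. Among all 17173 untested genes, 7245 were higher in TCDD, 6726 lower and 3202 listed at 0 in both groups. The list summed to 29.8 FPKM in DMSO and 107 FPKM in TCDD, with apoa2 (3.12 and 37.3 FPKM, untested) and apoa1b (21.4 and 42.2 FPKM, with an unnamed gene overlapping it and q = 0.223 by the authors' deposited table) the highest in TCDD. The summed liver level in TCDD was 3.28% of the cyp1a level there. The gut list, 5 rows, summed to 25.7 and 75.9 FPKM, with 4 rows higher, 0 lower and 1 of the rows for fabp2 listed at 0 in both groups. Of these, cdh17 rose from 21.7 to 44.1 FPKM (the authors' deposited table gives q = 0.0213). The untested APOA4 (2 of 3) had 2.34 and 26.6 FPKM. APOA4 (3 of 3) and FABP2 (1 of 2), also untested, did not exceed 3.39 FPKM in either group. The part of carried-over liver or gut in the CYP1 values was not tested.

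The 5 endothelial rows, cdh5, kdrl, tie1, vwf and egfl7, were all untested and summed to 46.8 FPKM in DMSO and 41.8 FPKM in TCDD, with 1 higher and 4 lower. Markers of the dissected tissue were above 0 in both groups, and 4 of the 6 were called lower in TCDD, where 7.46% of all tested genes were. They are 2 genes per tissue from a list written by hand, and the muscle and skin pairs each held 1 gene that was not called. Of the muscle genes, mylpfa fell from 12477 to 3299 FPKM, while ckma had 14434 and 15386 FPKM (the authors' deposited table gives q = 0.00105 and 0.876). Of the skin keratin genes, krt5 fell from 8037 to 3926 FPKM, while krt4 had 458 and 693 FPKM (the authors' deposited table gives q = 0.034 and 0.147). Both bone genes fell, col10a1 from 1363 to 185 FPKM and sp7 from 34.4 to 5.34 FPKM (the authors' deposited table gives q = 0.00105 and 0.0411). In TCDD sp7 lay below the lowest mean of a tested gene, 13.7 FPKM. Its call, and the count of markers that includes it, therefore cannot be read against the share over all tested genes. The part of these shifts in tissue markers in the CYP1 values was not tested.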

How the data were processed

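Axial tissue of medaka larvae was profiled in 3 DMSO and 3 TCDD libraries, grouped by their titles. Bowtie2 2.2.6 and DESeq2 appear in the submitters' processing notes without a stated role. Per the file headers, the authors' table has the layout of a Cuffdiff gene test: a level for each gene in each group, then a test statistic with its p-value and q-value. The authors' levels were taken to be FPKM, the unit of that layout, since they are not whole numbers. The authors' test statistic is a deposited score without a stated scale. Neither the genome build and annotation nor the way the 3 libraries were combined is given in these sources.

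Log2 fold changes (TCDD over DMSO) were computed from the deposited levels without a pseudocount. The deposited q-values equalled Benjamini-Hochberg values over the 3286 tested genes to within 5.11e-07. The code for that adjustment was tested on simulated data. Genes were called at q of at most 0.05, the authors' test being the only one these values allow. P450 genes were found by symbol, and the pathway, partner and marker lists were written by hand. The members and lists were chosen with earlier results of these data known. Named genes were every CYP1 gene, the called list members, the receptor and ARNT rows, direct neighbours, genes listed at 0 as CYP1B was, and the 3 nearest in fold change. List members named although they were not called, haem oxygenase genes among them, and single marker genes fall outside that rule and were picked after their values were seen. A RefSeq gene table for assembly ASM223467v1 shared no identifier with these data and held 1 of the 4 CYP1 symbols. Python 3.11.15, pandas 2.3.3, numpy 2.4.6 and matplotlib 3.10.9 were used.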

Additional observations from a re-analysis of the deposited data

How the results depend on the processing

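The 3 CYP1 calls held at q of at most 0.01 and at q of at most 0.1. Their shared q of 0.00105 in the authors' test fixed that outcome, so it is no further support. Over all genes, 300 were called at q of at most 0.01 and 376 when only the 1723 tested genes with a mean of at least 50 FPKM entered the adjustment, against 597. CYP1B lies below that mean, so 2 CYP1 genes, cyp1a and cyp1c2, remained tested and called there. Both lay below 50 FPKM in DMSO (27.7 and 11.6 FPKM) and passed that filter only through their TCDD values. Their calls under it are therefore no separate support. Of the other P450 genes 1 was called at q of at most 0.01 and 0 at a mean of at least 50 FPKM, where none of the 4 tested remained. With Bonferroni adjustment of the authors' p-values 0 genes passed, CYP1 included, because the smallest p of 5e-05 becomes 0.164; unadjusted, 1070 genes and 3 CYP1 genes had p below 0.05. Under 3 scalings and with 0.5, 1 or 5 FPKM added to both groups, the log2 fold change lay between 6.64 and 7.12 for cyp1a, 3.59 and 4.31 for cyp1c2, and 0.55 and 1.41 for the untested cyp1d1. Scaling both groups to equal totals added 0.25 to every value. No fold change was computed for CYP1B, listed at 0 in DMSO. Leaving out replicates was not run, as the table has no value per library. No paired analysis was possible because libraries have no separate values.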

Other observations

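In the deposited table the row directly before gchfr on chromosome 22 is cyp1c2. In the RefSeq gene table of assembly ASM223467v1, the 2 genes directly before gchfr carry no gene symbol, and they are typed as a pseudogene and a transcribed pseudogene, with bmf before them. The RefSeq table holds no Ensembl identifier, so whether either is the deposited cyp1c2, and whether reads were shared with a neighbouring copy, was not tested.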
